A study of Mus musculus with 20 samples.

Results

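A set of 9 mouse pseudogenes, out of 49585 genes in the deposited count table, stood apart in the 3 tumours of p53R245W/+ mice among 18 mouse osteosarcomas profiled by bulk RNA sequencing. They were named for exactly that: Rpl3-ps1, Gm6969, Gm10020, Rpl15-ps2, Gm13443, Gm8420, Gm5815, Gm18862 and Gm12904 were chosen because their counts in the R245W tumours differed from those in the other genotypes. Their differences between R245W and other tumours are therefore given below as a description, without a test. What was tested is what the choice did not use: the same pseudogenes among the other genotypes, and the protein-coding genes they resemble.

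Osteosarcoma is a malignant bone tumour. All genotypes shared a strain background that mixed C57BL/6J with 129S/SvJae. The primary tumours fall into 4 groups: 3 from p53R245W/+ mice, 5 from p53R270H/+ mice, 6 from p53R172H/+ mice and 4 from p53+/- mice (here R245W, R270H, R172H and p53 het). The first 3 genotypes carry a missense hotspot allele of Trp53 and the last a lost allele. Cell line 14, an osteosarcoma line labelled p53R245/O, gave 1 library with siRNA against p53 (sip53) and 1 control library, whose label gives a heterozygous mutant with loss of heterozygosity. The comparisons ask how tumours with the hotspot mutants differ from tumours with a lost allele and from each other. The labels give neither the age of the mice, nor the strain origin of any chromosome in a tumour, nor the alleles that a tumour kept, and the line is a single line.

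A processed pseudogene is a copy of a spliced messenger RNA written back into the genome; it lacks introns and usually a promoter of its own, and is read where it landed near one. An unprocessed pseudogene is a duplicated piece of a gene with its introns. Ribosomal protein genes, which are short and strongly expressed, have left very many processed copies in mammalian genomes. Inbred mouse strains are known to differ in which retrocopies they carry and transcribe. Because a young copy is nearly identical to its parent, a short read can match both, and a count for one can then hold reads of the other.

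Total counts were 21964474 to 23956389 in R245W, 20650178 to 26757406 in R270H, 20136957 to 28755806 in R172H and 22788668 to 29211623 in p53 het tumours, and 73352548 in the sip53 and 64078428 in the control library. Levels are given in CPM, the count scaled to a fixed library total. Where a gene had 0 counts, up to 3 counts were allowed for, which is 0.103 to 0.149 CPM in a tumour library. Trp53 averaged 64.5 ± 8.54 CPM in R245W, 36.8 ± 11.9 CPM in R270H, 50.6 ± 13.5 CPM in R172H and 20.2 ± 5.75 CPM in p53 het tumours (SD; n = 3, 5, 6 and 4), and was 30.6 CPM in the sip53 and 94.9 CPM in the control library. All 7 osteoblast markers examined were read in every genotype. Their summed level was 19070 to 54340 CPM in R245W tumours and 13470 to 79380 CPM over the other genotypes. It was lower in the line (3238 CPM in sip53, 2889 CPM in control). Titles of all R245W and R172H tumours and of p53 het 1 and 2 carry a serial number, and those of all R270H tumours and of p53 het 3 and 4 do not. R245W against R172H therefore lies within a kind of title. R245W against R270H and R270H against R172H fall together with the kind of title, so that genotype and kind of title cannot be told apart there and no value within a kind can be had. For results against p53 het, values within a kind use p53 het 1 and 2 for R245W and R172H, and p53 het 3 and 4 for R270H. In bulk RNA, fewer cells of a type and less RNA per cell cannot be told apart.

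The sequences show how close the copies are to coding genes. Each pseudogene was matched by BLAST to the coding transcripts of GENCODE M21, whose build, GRCm38, is that of the deposited counts. Changes are written with the coding base first, the position counted from 1 at the first base of the pseudogene, and the pseudogene base last. Rpl3-ps1 (chrX:13202571-13203780, plus strand) is a processed copy of Rpl3, which encodes a core protein of the large ribosomal subunit. It was identical to the Rpl3 transcript at 99.8% of 1210 bases, with C58A and T787C as its only differences. The first of these is shown with 20 bases on each side, since in 21 annotated copies of Rpl3 only Rpl3-ps1 has it; the differing base is in capitals.
Rpl3-ps1 (chrX:13202608-13202648, plus strand): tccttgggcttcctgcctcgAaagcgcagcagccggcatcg
Rpl3 (chr15:80082509-80082549, minus strand): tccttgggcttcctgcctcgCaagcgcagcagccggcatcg
The differences leave 5.22% of the 100-base windows of Rpl3-ps1 without an exact copy in any other annotated gene.

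Gm6969 (chr12:24638669-24639010, minus strand) is a processed copy of Cox7a2l, which encodes a protein that helps to join complexes III and IV of the mitochondrial respiratory chain. Mouse strains are known to differ in Cox7a2l itself: the C57BL/6J allele lacks a few in-frame codons that other strains have. Against the reference Cox7a2l transcript, the BLAST alignment of Gm6969 had 98.0% identity over 342 bases, with 1 mismatch and 2 gap openings. A second alignment of the same stretch placed 6 extra bases in a row followed by T220A, and C309T further on. The base change T220A depends on that placing of the extra bases. The place of the extra bases is shown, with the extra and changed bases in capitals; the Cox7a2l stretch is spliced from neighbouring exons. Whether these are the bases in which Cox7a2l differs between strains was not tested.
Gm6969 (chr12:24638771-24638817, minus strand): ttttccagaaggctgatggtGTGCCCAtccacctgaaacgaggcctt
Cox7a2l (chr17:83502705-83504107, minus strand): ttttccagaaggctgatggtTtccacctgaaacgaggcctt
Of its 100-base windows, 53.1% had no exact copy in another gene.

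Gm10020 (chr15:52477617-52478228, minus strand), Rpl15-ps2 (chr9:72060937-72061549, plus strand) and Gm8420 (chr1:51940664-51941261, minus strand) are processed copies of Rpl15, another gene of the large ribosomal subunit. RefSeq lists Gm10020 as Rpl15-ps6. Their identity to the Rpl15 transcript was 99.7%, 98.7% and 96.6%, and 24.8%, 56.2% and 99.2% of their 100-base windows had no exact copy in another gene. All 3 copies differ from Rpl15 at the base in capitals (A156G in Gm10020 and Gm8420, A154G in Rpl15-ps2), and so do 17 of 21 annotated copies of Rpl15; the Rpl15 stretch is spliced across an intron.
Gm10020 (chr15:52478053-52478093, minus strand): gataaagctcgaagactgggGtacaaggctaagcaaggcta
Rpl15-ps2 (chr9:72061070-72061110, plus strand): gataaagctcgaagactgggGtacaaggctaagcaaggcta
Gm8420 (chr1:51941086-51941126, minus strand): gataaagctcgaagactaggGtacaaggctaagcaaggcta
Rpl15 (chr14:18270040-18270315, minus strand): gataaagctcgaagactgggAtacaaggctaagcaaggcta
The other difference of Gm10020, C202A, was found in no other copy.
Gm10020 (chr15:52478007-52478047, minus strand): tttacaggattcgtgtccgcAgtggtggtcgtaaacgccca
Rpl15 (chr14:18269994-18270034, minus strand): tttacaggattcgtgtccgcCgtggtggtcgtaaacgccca

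Gm13443 (chr2:35340409-35340963, plus strand), listed by RefSeq as Glo1-ps, is a processed copy of Glo1, which encodes glyoxalase I, the enzyme that starts the removal of methylglyoxal. It was 99.5% identical over 555 bases, with G9A, T75C and T225C, and 38.4% of its 100-base windows had no exact copy elsewhere. The last of the 3 differences is shown in capitals.
Gm13443 (chr2:35340613-35340653, plus strand): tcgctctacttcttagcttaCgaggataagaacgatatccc
Glo1 (chr17:30600102-30600142, minus strand): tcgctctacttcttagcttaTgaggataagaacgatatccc
Of the other members, matches are given to Glcci1 (Gm5815, chr17:58593614-58594840, plus strand, 98.9% identity), a glucocorticoid-induced gene, and more loosely to Ago2. Gm18862 (chr6:86351851-86352984, plus strand) was the only unprocessed pseudogene of the set. Gm12904 (chr4:123838104-123839502, plus strand) was 90.9% identical to Ago2, the Argonaute protein that cuts RNA. All 100-base windows of Gm18862 and Gm12904 were free of exact copies elsewhere (100%). How the authors counted reads that match several genes is not given in the sources used here, so the counts of the copies with few such windows, Rpl3-ps1 and Gm10020 above all, are uncertain as to locus.

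Members differed in size by a wide margin. For all 9, the R245W libraries did not overlap with the other 15 tumours, 8 above and Gm12904 below; over all 20616 genes tested 0.98% did not overlap (0.519% wholly above in R245W and 0.461% wholly below), and nothing is read from the members' count, since they were chosen on it. The count was also 9 when only tumours with a serial number in the title were compared. CPM in this comparison were scaled by TMM, edgeR's correction for library composition.

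**Figure D1:**
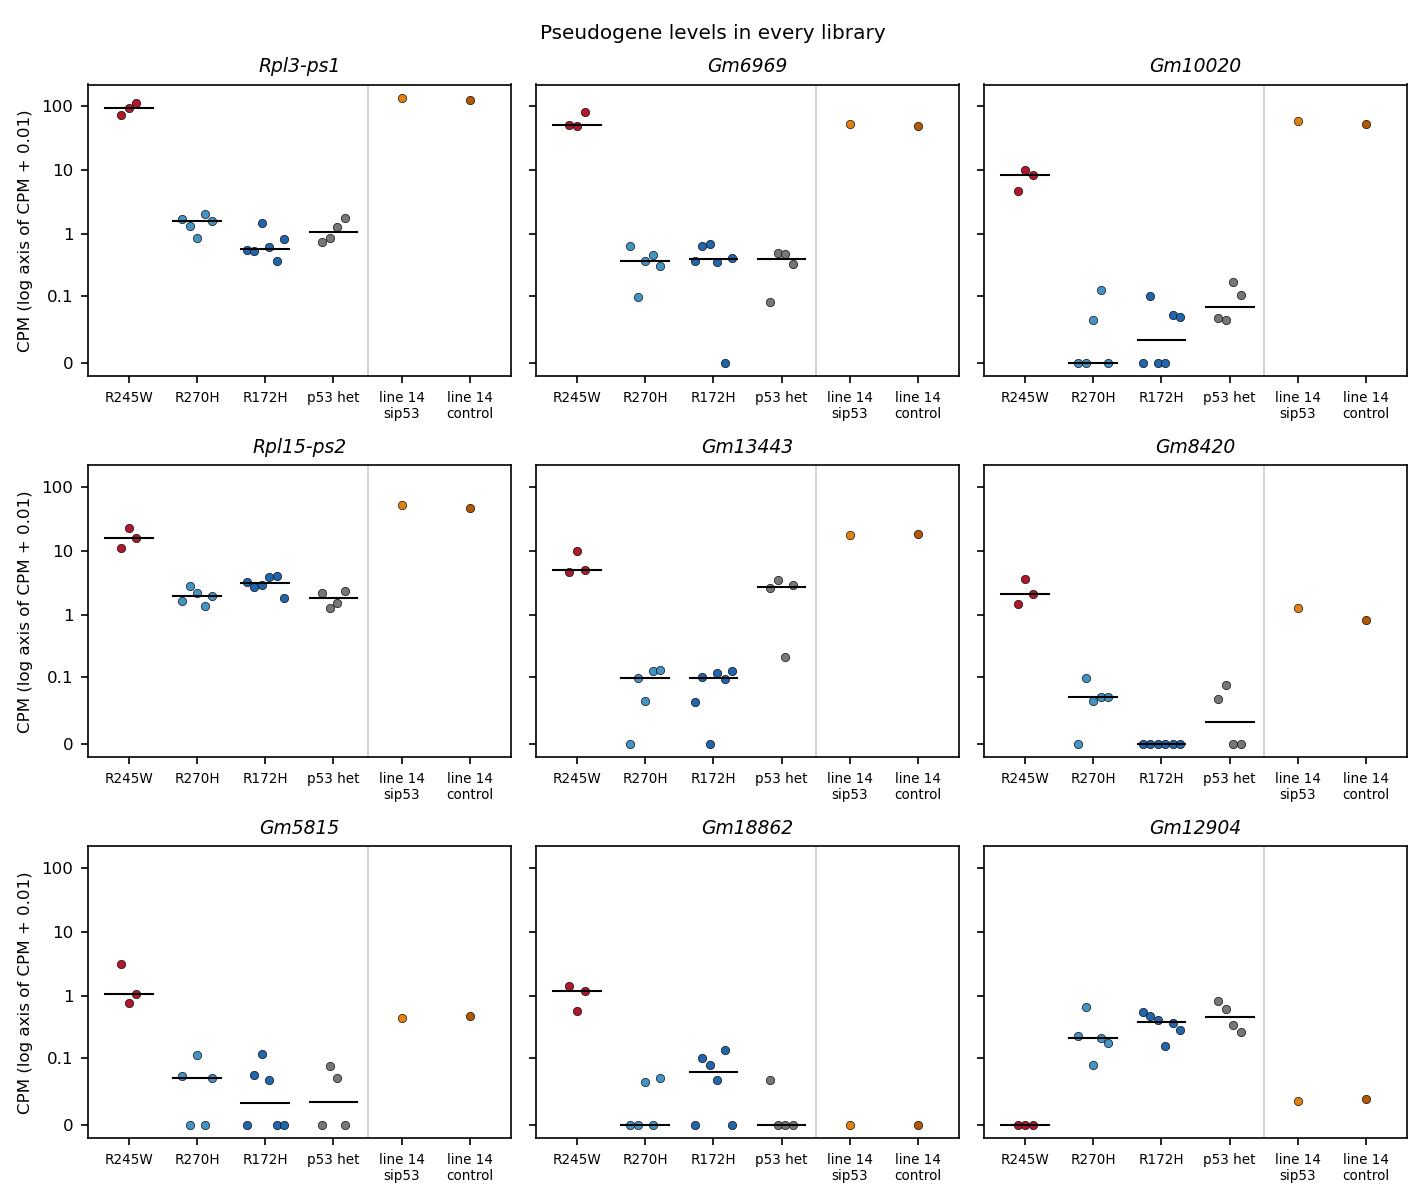
Level of each of the 9 pseudogenes in every library, in CPM on a log axis of CPM + 0.01 (0 is at the lowest tick). Points are libraries, lines the medians of the plotted values for the 4 tumour genotypes; the R245W points lie above all other tumours in 8 panels and at 0 for Gm12904, and Gm13443 also has 3 raised p53 het points.

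Rpl3-ps1 had 1603, 2065 and 2710 counts (71.5, 94.0 and 113.1 CPM) in the R245W tumours. It had 37, 28, 23, 49 and 36 counts in R270H tumours, 8 to 39 (median 16) in R172H tumours and 19, 24, 30 and 52 in p53 het tumours. Every R245W library was far above every other tumour, where the highest level was 2.11 CPM. The fitted log2 fold of R245W was 5.94 ± 0.39 over R270H, 6.98 ± 0.38 over R172H and 6.22 ± 0.44 over p53 het (± SE, edgeR, not tested). Gm6969 had 1158, 1063 and 1903 counts in R245W tumours. It had 14, 2, 10, 11 and 7 in R270H tumours, 0 to 18 (median 10.5) in R172H tumours and 2, 14, 11 and 10 in p53 het tumours. Again no other tumour came near R245W, and the log2 folds were 7.26 ± 0.69, 7.18 ± 0.63 and 7.28 ± 0.76 over R270H, R172H and p53 het.

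The 3 copies of Rpl15 differed in level. Gm10020 had 107, 219 and 204 counts in R245W tumours, against 0, 0, 1, 3 and 0 in R270H tumours, 0 to 2 (median 0.5) in R172H tumours and 1, 1, 4 and 3 in p53 het tumours. It was close to silent outside R245W. Its log2 folds were 7.61 ± 0.83, 7.90 ± 0.78 and 6.33 ± 0.83 over R270H, R172H and p53 het, and rest on few counts in the lower groups: they were 8.92 over R270H without R270H 4, 8.52 over R172H without R172H 2 and 7.34 over p53 het 1 and 2 only. Rpl15-ps2 had 249, 503 and 381 counts in R245W tumours. It was also read everywhere else: 36, 59, 59, 33 and 44 counts in R270H tumours, 44 to 100 (median 82.5) in R172H tumours and 57, 35, 35 and 69 in p53 het tumours. The groups did not overlap, but the R245W difference was smaller, with log2 folds of 3.05 ± 0.31, 2.46 ± 0.28 and 3.10 ± 0.33. Gm8420 had 34, 81 and 52 counts in R245W tumours, 0, 2, 1, 1 and 1 in R270H tumours, 0 in all 6 R172H tumours and 1, 2, 0 and 0 in p53 het tumours. Its level in R245W was at least 118-fold higher than in R172H, with 3 counts over the whole R172H group as the limit. In each of these 3 copies R245W 2 had the highest count of the 3 R245W libraries, as it had for Rpl15 itself (729, 1862 and 1018 counts).

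Gm13443 divided the tumours differently. It had 108, 224 and 122 counts in R245W tumours, 0, 2, 1, 3 and 3 in R270H tumours, 0 to 3 (median 2.0) in R172H tumours and 67, 97, 5 and 86 in p53 het tumours. All but p53 het 3 of the p53 het tumours had many reads, while the R270H and R172H tumours were near 0. In CPM the R245W libraries (4.81, 10.2 and 5.09) lay above the p53 het libraries (2.64, 3.57, 0.219 and 2.94), by a log2 fold of 1.42 ± 0.70; the folds over R270H and R172H were 6.34 ± 0.81 and 6.40 ± 0.75.

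The remaining members had lower counts. Gm5815 had 72, 17 and 26 counts in R245W tumours, 1, 0, 3, 0 and 1 in R270H tumours, 0 to 3 (median 0.5) in R172H tumours and 0, 2, 1 and 0 in p53 het tumours. R245W 1 was well above the other R245W tumours, all of which exceeded the rest. Gm18862 had 32, 13 and 29 counts in R245W tumours, 0, 0, 1, 0 and 1 in R270H tumours, 0 to 3 (median 1.5) in R172H tumours and 1, 0, 0 and 0 in p53 het tumours. Gm12904 was the member that went the other way: it had 0 counts in each R245W tumour, against 5, 14, 2, 5 and 4 in R270H tumours, 4 to 16 (median 9.0) in R172H tumours and 21, 17, 8 and 8 in p53 het tumours. With 3 counts over the 3 R245W libraries as the limit, it was at least 5.99-fold lower than in R270H, 8.80-fold lower than in R172H and 11.8-fold lower than in p53 het tumours. These limits take the counts of the other groups as they stand. R270H 2 gave 14 of the 30 R270H counts, so the limit against R270H leans on that library.

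The choice of members did not use the contrasts among R270H, R172H and p53 het directly, but it decided which members could be tested there. Without the R245W libraries only Rpl3-ps1, Gm6969, Rpl15-ps2 and Gm12904, 4 of 9, would have passed the filter on low counts. Of these 4, 0 passed an adjusted p of 0.05 in edgeR for R172H against p53 het (background 0.0776% of all genes tested, 0.0728% lower), 0 for R270H against p53 het (background 0%) and 0 for R270H against R172H (background 5.28%). At an unadjusted p under 0.05 they were 2, 0 and 2 in the same order, beside 2527, 2364 and 4779 of all 20616 genes. DESeq2 called 0, 0 and 1 of the 4, beside 295, 320 and 2226 over all genes. Gm10020, Gm8420, Gm5815 and Gm18862 had 0 other libraries past the filter's minimum level and entered the test only through the R245W libraries on which they were chosen. Gm13443 was past it in 3 other libraries, all p53 het, enough when the smallest group has 3 libraries but not the 4 needed without R245W. No count of calls over these 5 is given.

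Gm13443 is therefore described by its values: outside R245W it passed the filter only through p53 het, the genotype where it was high, so the p-values beside its folds against p53 het support nothing. The log2 fold of R172H over p53 het was -4.98 ± 0.71 (edgeR quasi-likelihood test, adjusted p = 0.0401), and 6 of 6 R172H tumours lay below each p53 het tumour. Against p53 het 1 and 2, within the titles with a serial number, it was -5.47 (edgeR, adjusted p = 0.00529). With no filter the adjusted p was 0.0225 in edgeR, and with only the groups compared Gm13443 did not pass the filter. With a library left out in turn the log2 fold ran from -5.36 to -4.62, and the adjusted p was above the threshold without any one of 12 libraries (p53 het 4, R172H 1 to 5, R245W 1 and 3, and R270H 2 to 5), reaching 0.137 in edgeR. The log2 fold of R270H over p53 het was -4.92 ± 0.77 (edgeR, adjusted p = 0.0791), and each R270H library (at most 0.134 CPM) was below each p53 het library (at least 0.219 CPM). Over the alternatives that adjusted p ran from 1.02e-06 (DESeq2) to 0.183 (edgeR without R270H 3), and was 0.0496 with no filter in edgeR. It was below the threshold without p53 het 3 (log2 fold -5.30), which had 5 counts, and without R172H 6 (-4.92). Against p53 het 3 and 4, whose titles are like those of R270H, the log2 fold was -4.20 (edgeR, adjusted p = 0.127).

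In R270H against p53 het no gene at all passed in edgeR, where 2364 of 20616 genes had an unadjusted p under 0.05. DESeq2 called 320 genes. Gm13443 was among them, but passed the filter only through genotypes where it is high, so its call supports nothing. Rpl3-ps1 differed by a log2 fold of 1.04 ± 0.32 in R270H against R172H (edgeR, adjusted p = 0.065), with 0.860 to 2.11 CPM in R270H and 0.372 to 1.51 CPM in R172H tumours; its groups overlapped, and without R172H 3, its highest R172H library, the test called it (1.36). Rpl15-ps2 differed by -0.60 ± 0.26 in R270H against R172H (edgeR, adjusted p = 0.177) and by 0.64 ± 0.28 in R172H against p53 het (edgeR, adjusted p = 0.372), or 0.63 against p53 het 1 and 2 only (edgeR, adjusted p = 0.745). The first of these ran opposite to that of Rpl15, given below. Gm12904 had 0.277 ± 0.233 CPM in R270H, 0.384 ± 0.143 CPM in R172H and 0.520 ± 0.255 CPM in p53 het tumours (SD; n = 5, 6 and 4), with overlapping groups.

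The coding genes were next examined, to see whether they differed where the copies did. In no contrast of R245W did Rpl3, Rpl15 or Cox7a2l pass. Rpl3 had 109.2, 318.2 and 147.7 CPM in R245W tumours, 172.1 to 337.9 CPM in R270H, 146.3 to 209.0 CPM in R172H and 211.1 to 312.9 CPM in p53 het tumours; R245W 2 lay among the highest libraries and R245W 1 below all others. Without R245W 2 the log2 folds below would be -1.02, -0.54 and -1.06. Its log2 fold in R245W was -0.40 (95% interval -1.05 to 0.25) over R270H, 0.08 (-0.54 to 0.70) over R172H and -0.44 (-1.12 to 0.23) over p53 het, with adjusted p-values of 0.502, 0.941 and 0.581 in edgeR. For Rpl15 the log2 fold was -0.46 (-1.20 to 0.27), 0.68 (-0.01 to 1.37) and -0.08 (-0.84 to 0.68) in the same order, with adjusted p-values of 0.495, 0.458 and 0.95 in edgeR. For Cox7a2l it was 0.00 (-0.58 to 0.58), -0.44 (-1.01 to 0.13) and -0.51 (-1.12 to 0.10), with adjusted p-values of 0.998, 0.576 and 0.478 in edgeR. The intervals leave room for changes of the coding genes. The folds of the copies start from far lower levels, so their size cannot be set against that of the coding genes.

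**Figure D2:**
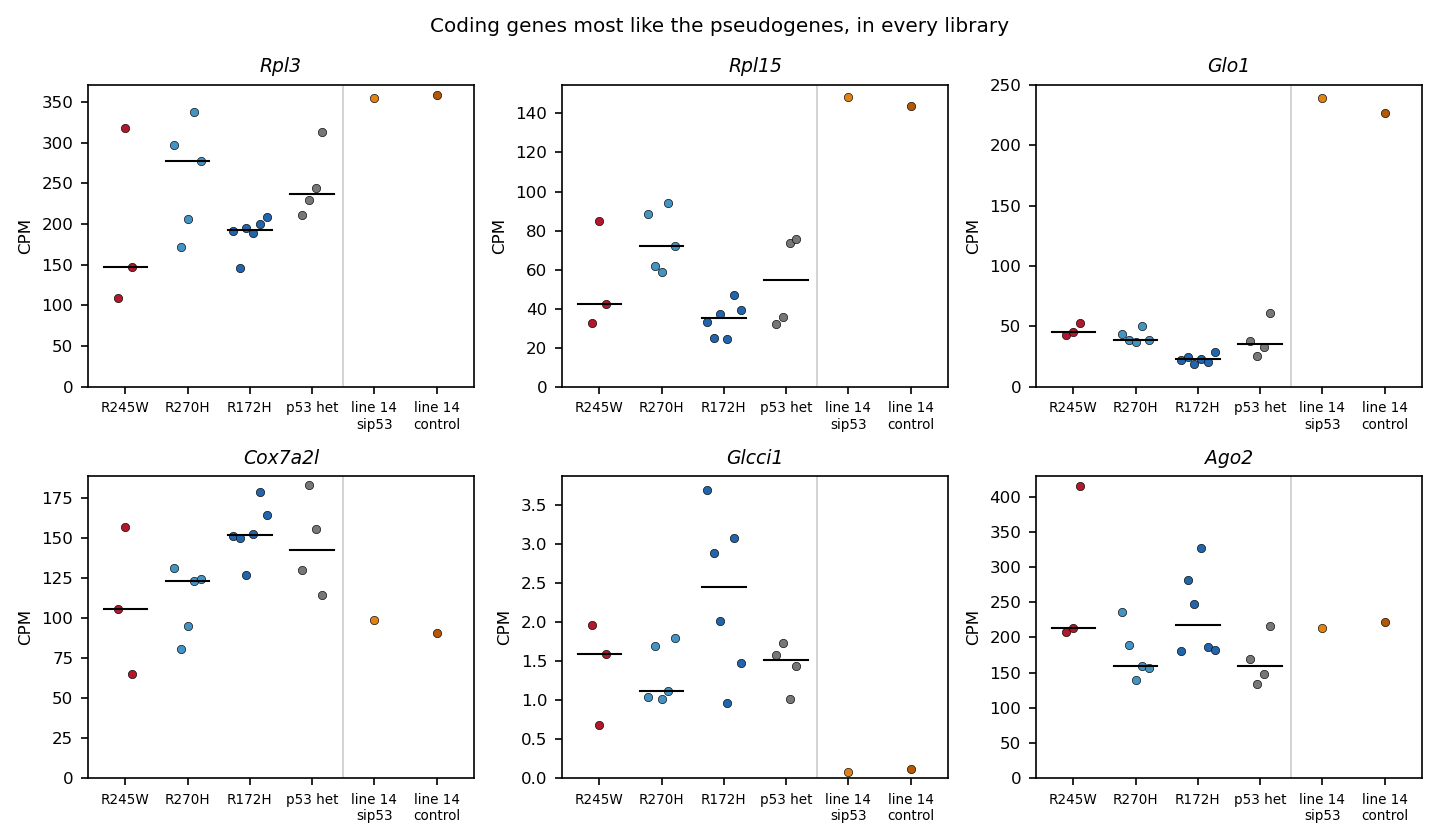
Level of 6 coding genes most like the pseudogenes in every library, in CPM on linear axes from 0. Points are libraries and lines the medians of the genotypes; the R245W points overlap with the range of the other tumours for all 6 genes, and the median of Glo1 is lowest in R172H.

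Glo1, the coding gene like Gm13443, had 42.8, 45.1 and 53.1 CPM in R245W tumours, 36.7 to 50.5 CPM in R270H, 18.7 to 28.7 CPM in R172H and 25.4 to 61.4 CPM in p53 het tumours. It was higher in R245W than in R172H by a log2 fold of 1.07 ± 0.20 (edgeR, adjusted p = 0.0435; 1 of 6 coding genes, background 0.155%, or 0.116% higher), and all 3 R245W libraries exceeded all 6 R172H libraries. That call was lost without any of 12 libraries left out one at a time (p53 het 1, R172H 1 to 5, R245W 1 to 3, and R270H 1, 3 and 5), with log2 folds of 0.99 to 1.14 in those 12. Glo1 was also higher in R270H than in R172H, by 0.88 ± 0.18 (edgeR, adjusted p = 0.0149), and Rpl15 by 1.15 ± 0.28 (edgeR, adjusted p = 0.0279). Both stand as 2 of 6 coding genes against a background of 5.28%, with R270H and R172H also differing in the kind of title, and the call of Rpl15 was lost without R172H 1, 2, 3 or 4 or without R270H 1 or 4. Rpl15 had 32.3 and 35.6 CPM in p53 het 1 and 2, and 73.8 and 75.5 CPM in p53 het 3 and 4. Its log2 fold was -0.02 in R270H over p53 het 3 and 4 (edgeR, adjusted p = 0.989). In R172H over p53 het 1 and 2 it was -0.20 (edgeR, adjusted p = 0.919). That of Glo1 in R270H over p53 het 3 and 4 was -0.18 (edgeR, adjusted p = 0.832). In R172H against p53 het the log2 fold of Glo1 was -0.88 ± 0.19 and did not pass (edgeR, adjusted p = 0.0937); against p53 het 1 and 2 only it was -0.66 (edgeR, adjusted p = 0.567). R245W differed from p53 het in Glo1 by 0.19 ± 0.23 (edgeR, adjusted p = 0.752). Glcci1 and Ago2 differed between R245W and p53 het by log2 folds of -0.14 ± 0.44 and 0.66 ± 0.25, with adjusted p-values of 0.923 and 0.297 in edgeR.

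Each copy and its coding gene were then summed, since reads that match both could be counted for either. Rpl3-ps1 made up 39.5%, 22.8% and 43.4% of the counts of Rpl3-ps1 plus Rpl3 in R245W tumours, against 0.414% to 0.782% in R270H, 0.185% to 0.771% in R172H and 0.354% to 0.566% in p53 het tumours. The summed level was 180.7, 412.2 and 260.8 CPM in R245W tumours and 146.9 to 340.0 CPM in the other 15 tumours, which overlap. Gm6969 made up 32.8%, 23.5% and 55.0% of the counts of Gm6969 plus Cox7a2l in R245W tumours and at most 0.545% in any other tumour. Here too the sums overlapped, with 157.4, 205.7 and 144.5 CPM in R245W and 80.9 to 183.6 CPM elsewhere. The 95% exact Clopper-Pearson interval of the share of Gm6969 in R245W 3 was 53.3% to 56.7%. The gaps are a description only, since the members were chosen on their R245W counts. Shares are of counts, not of transcripts per length, and intervals cover counting error only.

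**Figure D3:**
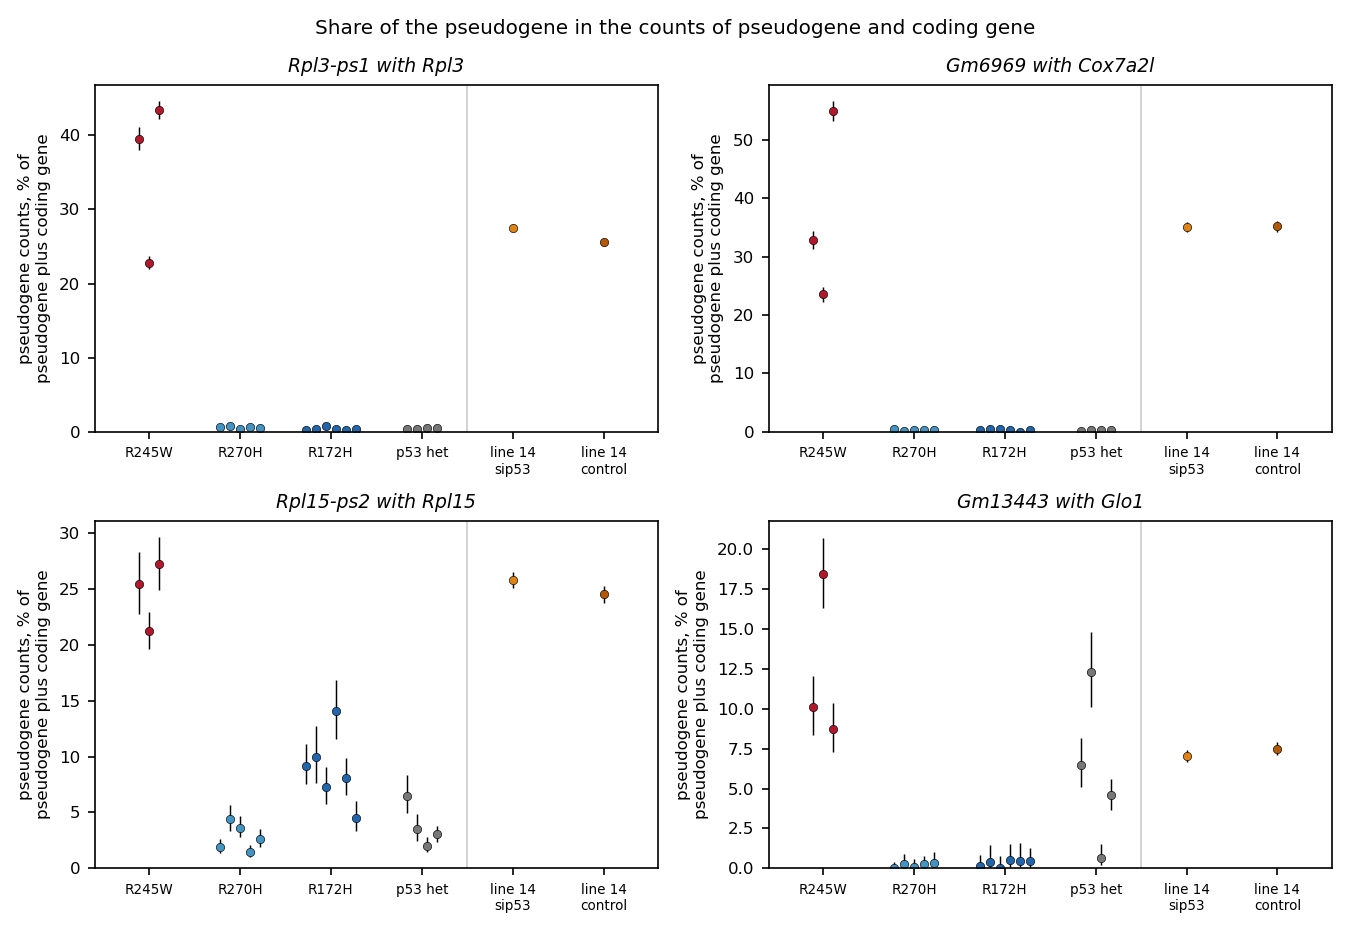
Counts of 4 pseudogenes as a percentage of pseudogene plus coding gene in every library, with 95% exact binomial intervals. Rpl3-ps1 and Gm6969 lie at 22.8% to 55.0% in R245W tumours and under 0.8% in the other tumours, whereas Rpl15-ps2 reaches 14.0% in an R172H tumour and Gm13443 reaches 12.3% in a p53 het tumour.

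For the copies of Rpl15, the shares of the pair with Rpl15 were 10.5% to 16.7% (Gm10020), 21.3% to 27.2% (Rpl15-ps2) and 4.17% to 4.86% (Gm8420) in R245W tumours. In the other tumours they were at most 0.394%, from 1.49% to 14.0%, and at most 0.206%. Rpl15-ps2 thus took a larger share of the pair in R172H tumours (4.52% to 14.0%) than in R270H tumours (1.49% to 4.41%), without overlap, in groups that also differ in the kind of title. Gm13443 made up 10.1%, 18.5% and 8.76% of the counts with Glo1 in R245W tumours, at most 0.347% in R270H, at most 0.516% in R172H, and 6.51%, 12.3%, 0.655% and 4.57% in p53 het tumours. Unlike its level, its share overlapped between R245W and p53 het tumours.

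Most other copies of the same parents had few counts. Of 20 annotated copies of Rpl3 in the table, 19 had fewer than 10 counts summed over the R245W tumours, and only Rpl3-ps1 passed the filter. Rpl3-ps2, 98.8% identical to Rpl3, had 0, 4 and 1 counts in R245W and 1 to 13 in other tumours. Of 17 copies of Rpl15, 5 had higher counts in each R245W library than in any other tumour: the 3 members and, chosen here after their values were seen, Gm10224 (10, 20 and 17 counts against 0 to 8) and Gm8885 (7, 21 and 7 against 0 to 5). Nothing is read from that count, since the 3 members were chosen on it. It is of raw counts, for which no share over all genes was computed. On TMM-scaled CPM 0.519% of all genes tested were wholly above in R245W. Of the Rpl15 copies outside the members 4 were tested, and 0 passed in any of the 6 contrasts in edgeR. Rpl15-ps3, fully identical to Rpl15 (100% of the aligned bases), had 0 counts in each R245W tumour. Beyond these families, 61 other ribosomal protein pseudogenes named by symbol were tested. For R245W, 0 of them passed against p53 het in edgeR (background 0.0728%), 0 against R172H, and 1 against R270H, where the background was 1.24% (0.757% higher): Rpl30-ps3, higher by 1.56 ± 0.33 (edgeR, adjusted p = 0.0304), between groups whose titles also differ in kind. Their median log2 fold was 0.05 against R270H, 0.52 against R172H and 0.07 against p53 het, beside -0.02, 0.00 and -0.04 over all genes.

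In R270H against R172H, 8 of these 61 ribosomal protein pseudogenes were higher and 2 lower, and 25 of 84 cytosolic ribosomal protein genes were higher and 0 lower, beside 3.41% of all genes higher and 1.87% lower. All R270H titles are of a kind that no R172H title has, and genotype and kind of title cannot be told apart in these counts. The 5 of lowest p among the pseudogenes were Rpl36a-ps2 (2.27 ± 0.36), Rps25-ps1 (2.74 ± 0.57), Rpl9-ps6 (3.09 ± 0.64), Rpl14-ps1 (1.78 ± 0.37) and Rpl39-ps (3.37 ± 0.76), all higher in R270H. Among the coding genes they were Rpl10, Rpl5, Rpl36a, Rps9 and Rpl39, with log2 folds of 1.24 to 2.45. Within a kind of title none of these 5 pseudogenes and 5 coding genes passed in edgeR. Over p53 het 3 and 4, the coding genes ran from -0.25 (Rpl39) to 0.59 (Rpl5) in R270H. The pseudogenes ran from -0.05 (Rpl39-ps) to 1.14 (Rpl9-ps6) there. In R172H over p53 het 1 and 2, the coding genes ran from -0.45 (Rpl5) to -0.38 (Rps9). The pseudogenes ran from -0.85 (Rpl36a-ps2) to 0.27 (Rpl14-ps1). In R270H against R172H, the log2 folds of Rpl15 (1.15, passed) and Rpl3-ps1 (1.04, not passed) had the sign of most of the list. That of Rpl15-ps2 (-0.60, not passed) did not. For R245W a single one of the 84 genes passed, Rpl34, another large subunit protein, lower than in p53 het (-2.88 ± 0.47, edgeR, adjusted p = 0.0202, where 0.0388% of all genes were lower) and lower than in R270H (-3.52 ± 0.48, edgeR, adjusted p = 0.00208). Against p53 het 1 and 2 only, Rpl34 was at -2.28 and did not pass (edgeR, adjusted p = 0.158). Of 115 tested genes with -ps and a number in the symbol, the members aside, 4 were higher in R245W than in R270H (beside the 0.757% above): Rpl30-ps3, Mdk-ps1 (edgeR, adjusted p = 0.0135), Hspe1-ps2 (1.97 ± 0.44) and Hspe1-ps5 (1.79 ± 0.43). Of the same genes, 10 were higher and 7 lower in R270H than in R172H, with Tpt1-ps3 (2.54 ± 0.33) and Mdk-ps1 (-2.74 ± 0.47) of lowest p in each direction. Tpt1-ps3 was also lower in R172H than in p53 het (-2.05 ± 0.34, edgeR, adjusted p = 0.0405), but did not pass against p53 het 1 and 2 only (-1.58, edgeR, adjusted p = 0.316).

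Atp6v0c-ps2, the one pseudogene of that kind higher in R245W than in R172H (6.41 ± 1.24, edgeR, adjusted p = 0.0454), resembled Gm13443. It had 390, 285 and 395 counts in R245W tumours, 321, 7, 12, 5 and 7 in R270H tumours, 1 to 8 (median 4.0) in R172H tumours and 518, 218, 11 and 362 in p53 het tumours. As for Gm13443, p53 het 3 was the only low p53 het tumour and all R172H tumours were near 0; R270H 1, in contrast, was high for Atp6v0c-ps2 and had 0 counts of Gm13443.

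The neighbourhood of each copy was examined over the 5 annotated genes on each side. Of 90 neighbours 41 were tested, and 2 passed in a contrast of R245W, both next to Gm12904. Over all genes tested, 1.24% passed for R245W against R270H, 0.155% against R172H and 0.0728% against p53 het. Ndufs5, a subunit of respiratory complex I, starts 125.4 kb before Gm12904, and Rhbdl2, a rhomboid protease of the membrane, 50.2 kb before it. Ndufs5 was lower in R245W by a log2 fold of -3.49 ± 0.36 against R270H, -4.20 ± 0.37 against R172H and -3.97 ± 0.37 against p53 het, and Rhbdl2 by -2.42 ± 0.38, -2.31 ± 0.38 and -2.77 ± 0.40 (edgeR, largest adjusted p = 0.0153). Against p53 het 1 and 2 only the log2 folds were -4.27 for Ndufs5 (edgeR, adjusted p = 8.96e-06) and -3.11 for Rhbdl2 (edgeR, adjusted p = 0.0119). Their R245W libraries (15, 22 and 40 counts of Ndufs5, 110, 68 and 191 of Rhbdl2) were below all other tumours. Akirin1, which lies between them, differed by -0.58, -0.37 and -0.42 and did not pass (edgeR, adjusted p = 0.13, 0.497 and 0.402). 1700121C08Rik, which overlaps Gm12904 on the opposite strand, had 2, 0 and 12 counts in R245W tumours and 0 to 18 in the others; as the strand setting of the counts is not given in the sources used here, reads of the pair cannot be told apart. Beside the other 8 members 0 of 33 tested neighbours passed in a contrast of R245W. Over all genes tested, 0.98% did not overlap between R245W and the other tumours after TMM scaling. Among the 33 only Gm44941, 20.7 kb from Gm18862, did not (27, 36 and 42 counts in R245W, 5 to 27 elsewhere). On plain CPM it did overlap, with 1.20 CPM in R245W 1 and 1.24 CPM in R172H 2. In the contrasts among the other genotypes 1 of the 41 passed: Snrpg, a core protein of spliceosomal ribonucleoproteins, 19.5 kb from Gm18862. It was higher in R270H than in R172H by a log2 fold of 1.55 (edgeR, adjusted p = 0.0257), groups that also differ in the kind of title. In that contrast 5.28% of all genes passed, and nothing is read from this call.

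**Figure D4:**
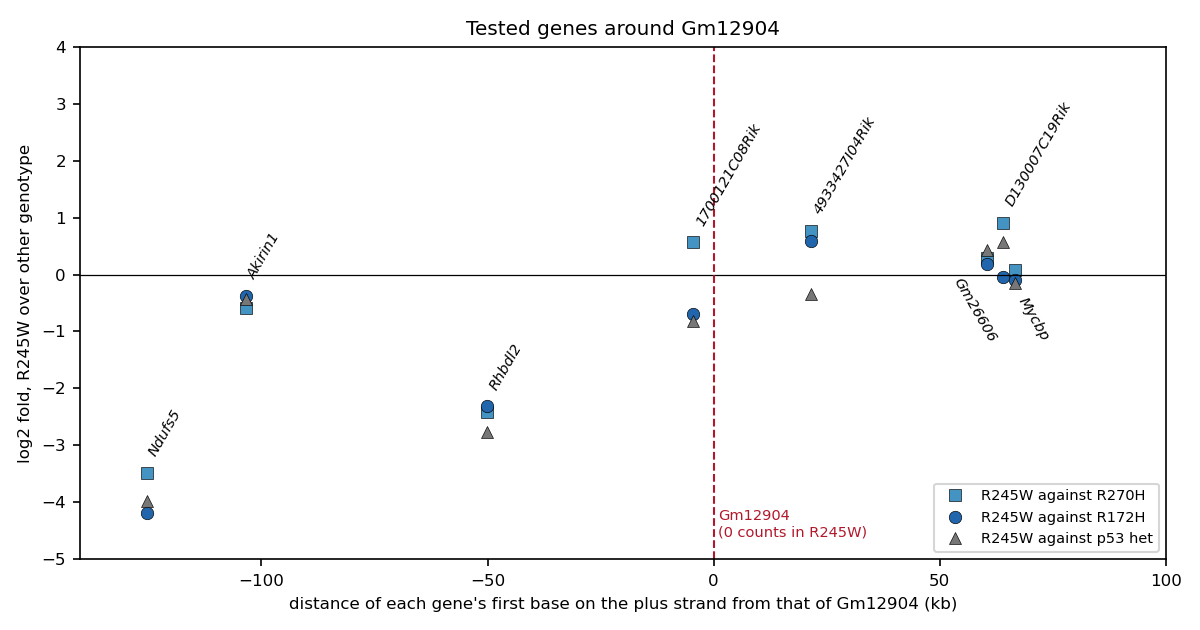
Log2 fold of R245W over each other genotype for the 8 tested genes around Gm12904, against the distance in kb from Gm12904 (dashed line). Ndufs5 and Rhbdl2 lie between -4.20 and -2.31 in all 3 comparisons, and the other 6 genes lie within 1 log2 unit of 0.

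Across the 18 tumours the genes whose log2 CPM was most like that of a member, by Pearson r, were found outside these neighbourhoods except for Gm12904. Gm9077, an unprocessed pseudogene on chromosome 12, was the most like Rpl3-ps1 (r = 0.89), Gm6969 (0.84), Gm10020 (0.85) and Gm8420 (0.86). It had 24, 34 and 43 counts in R245W tumours and 0 to 10 elsewhere. Gm10224 came second for Gm6969 (0.81) and Gm10020 (0.85), Ttll4 for Rpl3-ps1 (0.82) and Phyhip for Gm8420 (0.85). Gm12666 led for Gm18862 (0.89) and Rpl15-ps2 (0.86), with 62, 74 and 54 counts in R245W tumours, 28 and 24 in R172H 3 and 5 and 0 in the other 13 tumours. Wnk1 followed for Rpl15-ps2 (0.84) and Gm12312 for Gm18862 (0.86). For Gm13443 the most alike were Gm9008 (0.90) and St6galnac1 (0.88), for Gm5815 they were 1700034J05Rik (0.80) and Gm5801 (0.80), and for Gm12904 they were Rhbdl2 (0.88) and Ndufs5 (0.84). By Spearman's rho only 2 of these 18 pairs were again among the 2 most alike, Phyhip with Gm8420 (0.83) and Gm12666 with Gm18862 (0.90). Gm9077 had rho of 0.57 with Rpl3-ps1, 0.34 with Gm6969, 0.35 with Gm10020 and 0.47 with Gm8420, and was not among the 2 most alike for any of them. These points share libraries and the split between R245W and the rest. Between members, Rpl3-ps1 and Gm6969 had r = 0.96 over 18 tumours and 0.44 over the 15 without R245W, and Rpl3-ps1 and Rpl15-ps2 0.83 and -0.74.

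Cell line 14 was read for the same genes, with 1 library each and so no test. For 7 of 9 members both line libraries were above all 15 tumours of the other genotypes, for Gm12904 both were below them, and Gm18862 had 0 counts in both, against 13 to 32 in R245W tumours; 3 counts, the limit of 0, would be 0.0409 CPM in sip53 and 0.0468 CPM in control. The share of all genes set apart in this way was not computed, and nothing is read from these counts. Among the coding genes, Rpl3, Rpl15 and Glo1 were also above those 15 tumours in both line libraries. Glcci1 was below them, and Cox7a2l and Ago2 were within their range. Rpl3-ps1 had 134.7 CPM in sip53 (95% exact Poisson interval 132.0 to 137.4) and 123.1 CPM in control (120.4 to 125.9), above the highest R245W tumour. Gm6969 had 53.4 CPM (51.8 to 55.1) in sip53 and 49.3 CPM (47.6 to 51.0) in control, within the R245W range. Gm10020 was much higher in the line than in any tumour, with 4346 counts in sip53 and 3396 in control, or 59.2 CPM in sip53 and 53 CPM in control, against 4.77 to 9.97 CPM in R245W tumours. Rpl15-ps2 (51.7 and 46.7 CPM in sip53 and control) and Gm13443 (18.1 and 18.4 CPM) were above the R245W range as well. So were their coding genes Rpl15 (148.6 and 143.6 CPM) and Glo1 (239.5 and 227.3 CPM), and Rpl3, the coding gene of Rpl3-ps1 (355.2 and 359.0 CPM). Gm8420 (1.28 and 0.843 CPM) and Gm5815 (0.450 and 0.484 CPM) were below the R245W range and above the other tumours. Gm12904 had 1 count in each, Ndufs5 2.48 CPM in sip53 and 2.64 CPM in control, and Rhbdl2 had 15 counts in sip53 and 21 in control.

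For 3 of the pairs the line's shares with the coding gene lay within the R245W range: 27.5% in sip53 and 25.5% in control for Rpl3-ps1, 35.1% and 35.2% for Gm6969, and 25.8% and 24.5% for Rpl15-ps2. Those of Gm13443, 7.02% and 7.49%, were below the R245W range and within the p53 het range. Gm8420 was also below, with 0.855% in sip53 and 0.584% in control. Gm10020 (28.5% in sip53, exact interval 27.8% to 29.2%, and 26.2% to 27.8% for control) and Gm5815 with Glcci1 (84.6% in sip53 and 79.5% in control, of 39 counts each, against 40.6% to 62.1% in R245W tumours) were above the R245W range. Markers of blood cells were near absent from the line, where erythroid markers summed to 1.46 CPM in sip53 and 2.01 CPM in control and leukocyte markers to 4.31 and 4.34 CPM, against 309.0 to 947.1 CPM of leukocyte markers in R245W tumours. Between the line's libraries the log2 ratio of CPM plus 1, sip53 over control, was -1.60 for Trp53. Over Rpl3-ps1, Gm6969, Gm10020, Rpl15-ps2 and Gm13443 it ran from -0.02 (Gm13443) to 0.16 (Gm10020). Gm8420 (0.31) and Gm5815 (-0.03) had levels near or under the added 1 CPM, which draws their ratios toward 0. Gm12904 and Gm18862, with 1 and 0 counts in each library, could show no change. Reads of Gm8420 were 94 in sip53 and 54 in control, with intervals of 1.04 to 1.57 CPM and 0.633 to 1.10 CPM. Each interval is for a single library, and whether the libraries differ was not tested.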

How the data were processed

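RNA of 18 mouse osteosarcomas and of cell line 14 was sequenced from total RNA. The authors deposited a table of raw counts per gene and library; per the submitters' processing notes, reads were aligned to GRCm38 with STAR 2.6.0b and DESeq2 was used, with no version given. The counting program, its annotation, its strand setting and its treatment of reads with several matches are not given in the sources used here. Of 49585 gene IDs 49326 matched a symbol.

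The 18 tumours were fitted jointly by edgeR 4.0.16 (R 4.3.3), each genotype with its own mean (quasi-likelihood, TMM, 14 residual degrees of freedom), after filterByExpr by genotype had kept 20616 genes (minimum count 10, minimum total 15). p-values were adjusted by Benjamini-Hochberg over all genes kept, with a threshold of 0.05, and measure the spread between the tumours of a genotype. CPM are on total counts unless TMM is named; likeness used log2 CPM with a prior count of 2. Line ratios add 1 CPM. Replicates were compared by a chi-square test of counts: the smallest value over 34 pairs was 66.6 per degree of freedom, so none was a duplicate.

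Pseudogenes were matched to GENCODE M21 transcripts with BLAST 2.17.0, the best coding match being taken; that of Gm18862 is not reported here. A copy of Rpl3 or Rpl15 is an annotated pseudogene of at least 400 bases with at least 90% identity over at least 80% of its length. Names follow a rule: all members, the coding genes a reference names or the match found, the 2 genes most like each member, neighbours that passed or did not overlap, and at most 5 genes per list and contrast by p. The members and lists were chosen with earlier results of these data known, and the coding genes matched by sequence, the comparison by kind of title and the fit with p53 het 3 and 4 were added after the data were seen. The edgeR fit was checked on simulated counts. Alternatives were DESeq2 1.42.0, its size factors in edgeR, no filter, only the groups compared, p53 het 1 and 2 only, other additions to the CPM, Spearman's rho, and leaving out each library.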

Additional observations from a re-analysis of the deposited data

Results flagged for a closer look

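Within the genotypes other than R245W, the highest or lowest library of each of the 9 pseudogenes and of 6 coding genes was compared with its group. Dixon's ratio, the gap to the next value over the range, was used. Of 44 groups with any spread, 4 values stood far from the others. For normally distributed values chance alone sets apart about 1 in 20 groups. That rate does not hold for groups with few counts, where 1 read among zeros is set apart. Gm12904 was at 0.678 CPM (14 counts) in R270H 2, against 0.0747 to 0.236 CPM in the other R270H tumours. Rpl3 was at 146.3 CPM in R172H 2, against 189.6 to 209.0 CPM in the other R172H tumours. Gm10020 in R270H 4 (0.129 CPM, 3 counts, the others at most 0.0374 CPM) and Gm18862 in p53 het 1 (0.0394 CPM, 1 count, the others at 0) rest on 3 counts or fewer. Gm13443 in p53 het 3, low beside the other p53 het tumours, was not among the values set apart by this rule.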

How the results depend on the processing

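The 9 members stayed apart in R245W in each alternative where overlap was compared. These were CPM on total counts, each library left out, and only tumours with a serial number in the title. Nothing is read from this, since the members were chosen on it. Calls among the other genotypes changed with the setting, and the cause was not tested. Those against p53 het were of Gm13443, which passed the filter only through the genotypes where it is high, and support nothing. For R172H against p53 het Gm13443 did not pass the filter with only the groups compared, and its call was lost without some libraries, as given above. Of the coding genes 1 was called there by DESeq2, and 0 to 1 with a library left out, beside 0 to 166 of all genes. For R270H against p53 het Gm13443 was below the threshold with DESeq2, without the filter and with p53 het 1 and 2 only. It was not with p53 het 3 and 4 only (chosen after seeing the data). For R270H against R172H Rpl3-ps1, which passed the filter without R245W, was called by DESeq2 and without R172H 3. With a library left out 1 to 2 coding genes were called there, beside 469 to 1323 of all genes. For R245W against R172H 0 coding genes were called without the filter and with only the groups compared, and 0 to 1 with a library left out. Folds of coding genes that did not pass changed sign: Rpl15 against p53 het was 0.49 with p53 het 1 and 2 only and -0.62 to 0.19 with a library left out, Glcci1 against p53 het -0.44 to 0.18, Rpl3 against R172H -0.54 to 0.37 and Cox7a2l against R270H -0.39 to 0.28, all for R245W. Over all genes DESeq2 called 295 where edgeR called 16 (R172H against p53 het), 320 against 0 (R270H against p53 het), 2226 against 1088 (R270H against R172H), 363 against 15 (R245W against p53 het), 348 against 32 (R245W against R172H) and 1194 against 255 (R245W against R270H). In the same order edgeR called 33, 2, 633, 15, 41 and 109 without the filter, 0, 0, 1638, 4, 30 and 206 with only the groups compared, and 4, 94, 1336, 9, 48 and 503 with p53 het 1 and 2 only. No paired analysis was possible because the replicate numbers follow accession order and pair no tumours. Members with a few counts outside R245W limit the precision of their folds.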
